A study of Mus musculus with 24 samples.

Results

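The 35 autophagy genes described here are named components and regulators of macroautophagy, chosen by gene name from a list of members, of 56748 genes in the deposited table. Each name matched 1 row, and all 35 members passed the filter on low counts that left 21964 genes for testing. RNA was sequenced from stem and progenitor cells sorted from mouse bone marrow, although the tissue field reads blood. The 8 groups of 3 libraries were KO HSC, KO MPP1, KO MPP2 and KO MPP4, and WT HSC, WT MPP1, WT MPP2 and WT MPP4, where HSC stands for haematopoietic stem cells and MPP for multipotent progenitors. Mice of both genotypes had been given tamoxifen, a drug used to switch on an inducible recombinase, and the labels name neither the deleted gene nor the recombinase, nor the strain or age. No label ties a library to an animal, and the spread behind every p-value is that among these libraries alone, possibly a technical one.

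Macroautophagy is the route by which a cell wraps cytoplasm or organelles in a double membrane and delivers them to the lysosome. The ULK1 kinase complex starts the process, a class III PI3-kinase complex marks the membrane with its lipid, ATG9 vesicles and lipid transfer proteins supply membrane, and ubiquitin-like conjugation by ATG7, ATG3 and ATG10 attaches ATG12 to ATG5 and the ATG8 proteins (the LC3 and GABARAP families) to lipid. ATG4 proteases process the ATG8 proteins, cargo receptors such as SQSTM1 and OPTN bind both cargo and ATG8 proteins, and TFEB and TFE3 are transcription factors of autophagy and lysosome genes. In blood stem cells autophagy is known for clearing mitochondria and for maintaining quiescent stem cells, and deletion of Atg7 or Atg5 in mouse blood cells impairs stem cell function.

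The promoters of 29 of the 35 members were in the RefSeq table of build GRCm38.p6, and the 250 bases before the annotated start were searched on both strands for 3 motifs. TCACGTG, the core of the CLEAR element bound by TFEB and TFE3, was in the windows of 2 members, Atg3 and Atg7, and in 3.13% of all 32851 windows of this length. TGACNNNGC, the core of the antioxidant response element, was in the windows of 2 members, Ulk2 and Atg13, and in 10.2% of all windows. GTAAACA, bound by FOXO factors and other forkhead factors, was in 0 member windows and in 3.17% of all windows. These are matches of letters and no evidence of binding. The 4 windows below include those of Ulk1 and Optn, which had the strongest calls among WT populations, in opposite directions. Ulk2 and Atg3 are printed as examples of called members that hold a motif. Atg13 and Atg7 were also called and hold a motif, and their windows are not printed. Capitals mark a motif match. The 4 windows printed are chr5:110810082-110810331 (minus strand), chr11:61855093-61855342 (minus strand), chr16:45158579-45158828 (plus strand) and chr2:5064118-5064367 (minus strand), each written 5′ to 3′ on the strand of the gene.
Ulk1: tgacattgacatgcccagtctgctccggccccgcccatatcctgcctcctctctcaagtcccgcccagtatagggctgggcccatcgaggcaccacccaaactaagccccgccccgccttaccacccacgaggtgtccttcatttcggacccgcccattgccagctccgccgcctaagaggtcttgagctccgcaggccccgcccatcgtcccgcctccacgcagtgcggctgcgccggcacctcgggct
Ulk2: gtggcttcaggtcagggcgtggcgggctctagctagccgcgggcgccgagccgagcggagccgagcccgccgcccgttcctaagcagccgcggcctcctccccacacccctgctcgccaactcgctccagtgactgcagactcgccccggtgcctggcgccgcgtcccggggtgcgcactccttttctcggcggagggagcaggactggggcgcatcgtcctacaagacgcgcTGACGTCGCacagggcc
Atg3: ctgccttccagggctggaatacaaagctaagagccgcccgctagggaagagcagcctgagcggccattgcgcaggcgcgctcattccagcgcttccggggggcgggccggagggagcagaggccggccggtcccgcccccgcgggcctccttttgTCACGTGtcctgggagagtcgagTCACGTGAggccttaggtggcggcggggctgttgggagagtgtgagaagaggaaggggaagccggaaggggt
Optn: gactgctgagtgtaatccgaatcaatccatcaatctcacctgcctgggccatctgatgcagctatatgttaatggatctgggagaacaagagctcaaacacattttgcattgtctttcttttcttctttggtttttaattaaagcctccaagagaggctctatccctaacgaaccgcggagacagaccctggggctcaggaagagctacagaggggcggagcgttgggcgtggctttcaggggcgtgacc
Counted back from the start, with the base before it at -1, the motif of Ulk2 begins at -17, and those of Atg3 at -95, -72 and -71, where the last pair are both strands of the palindrome TCACGTGA. The windows of Ulk1, Ulk2 and Atg3 were rich in G and C, at 67.2%, 72.8% and 68% with 20, 31 and 21 CpG pairs, and that of Optn held 50% and 8, against medians of 52.4% and 6 over all windows.

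Total counts ran from 2894916 to 3667509 in KO-labelled and from 2540511 to 3807003 in WT libraries. Ddx6, an RNA helicase of P-bodies presumed to be the target because of what is known of the study, and named by no label, was not lower, at 57.7 to 96.6 CPM (the count relative to the library total, with no further scaling factor) in KO-labelled and 47.1 to 92.7 CPM in WT libraries, and higher in MPP1 by 0.61 on the log2 scale (adjusted p = 0.0211, edgeR; 0.37 and 0.297 after the background subtraction described below), so these libraries are called KO-labelled and every direction rests on that label. Counts per gene include reads outside a deleted exon and neither show nor exclude a deletion. Sort markers went against the MPP2 and MPP4 labels: Flt3, a marker of MPP4, was at 425 to 556 CPM in KO-labelled and 984 to 1080 CPM in WT MPP2, but at 79.8 to 94.3 CPM in KO-labelled and 63.6 to 94.7 CPM in WT MPP4, and Slamf1, a marker of MPP2, was at 1.42 to 9.67 CPM in KO-labelled and 6.39 to 8.56 CPM in WT MPP2, and at 73.0 to 116 CPM in KO-labelled and 40.6 to 61.0 CPM in WT MPP4. These groups are called MPP2-labelled and MPP4-labelled. Slamf1 also differed within HSC, at 190 to 243 CPM in KO-labelled and 73.4 to 82.1 CPM in WT libraries. The 9 erythroid markers, none at 0, summed to 134 to 153 CPM in KO-labelled and 222 to 258 CPM in WT HSC, to 121 to 155 CPM in KO-labelled and 747 to 806 CPM in WT MPP1, to 119 to 145 CPM in KO-labelled and 293 to 303 CPM in WT MPP2-labelled, and to 322 to 367 CPM in KO-labelled and 852 to 936 CPM in WT MPP4-labelled libraries. The 5 mast cell and basophil markers summed to 148 to 177 CPM in KO-labelled and 27.9 to 38.9 CPM in WT MPP2-labelled, to 266 to 318 CPM in KO-labelled and 41.2 to 58.3 CPM in WT MPP4-labelled, and to 4.33 to 22.9 CPM in all HSC and MPP1 libraries, with 1 of the 5 at 0 in KO-labelled HSC. In bulk libraries fewer cells of a type and less RNA per cell cannot be told apart, and the part of these markers in the results below was not tested. Receptor genes of smell, silent in blood cells, gave a background density of counts per kb of gene span. By that density, background made up 4.29 ± 0.133% of the counts in KO-labelled HSC and 19.4 ± 1.45% in WT HSC (SD, n = 3), 11.6 ± 0.131% in KO-labelled and 20.9 ± 0.859% in WT MPP1, 7.49 ± 0.453% in KO-labelled and 9.77 ± 0.145% in WT MPP2-labelled, and 15.1 ± 0.127% in KO-labelled and 26.1 ± 0.276% in WT MPP4-labelled libraries. Differences are therefore given as deposited, with a statement of which members' calls held once that expected background was subtracted. The subtraction takes background to be even along a gene's span, which was not tested. For Atg4a it exceeded the count, at 190% of it in WT HSC, so it may remove too much from genes of long span. The scaling of libraries was estimated anew after subtraction, so values after it also hold a change of scaling. Why a call was lost or kept was not tested.

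Per kb of annotated exon, Atg10, the enzyme that joins ATG12 to ATG5, had the highest level of the 35 members, at a mean over the 8 groups of 155 CPM per exon kb with group means of 112 to 209. Its gene spans 288.6 kb with 1.718 kb of exon, so reads from introns or background within its span, if counted, weigh on it more than on compact genes. Ambra1, a scaffold that links the ULK1 and PI3-kinase complexes, followed at 58.7 CPM per exon kb, then Gabarap at 44.5, Atg7 at 38.7 and Atg5 at 27.9. The group means of Atg10 all lay above those of Ambra1, at 45.7 to 73.2, which overlapped those of the next gene, Gabarap, at 26.9 to 69.5. At the low end, Becn1, the core subunit of the PI3-kinase complex, averaged 0.703 CPM per exon kb with a lowest group mean of 0.414, below Atg4d at 1.6, Tfe3 at 2.0 and Map1lc3a at 2.36. Becn1 shares 43.9% of its exon bases with a gene on the other strand, Cntd1, Atg9a shares 31.8% with genes on its own strand, and Gabarapl1, Atg4d and Sqstm1 share 28.3%, 19.3% and 17.3% with genes on the other strand. The strand setting of the counting is not given in the sources used here, so the levels of these 5 members are uncertain. Relative to its mean of 8.82 CPM per exon kb, Optn had the widest range of group means of the 35 members, from 1.98 in KO-labelled MPP1 to 27.6 in WT MPP4-labelled libraries.

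**Figure D1:**
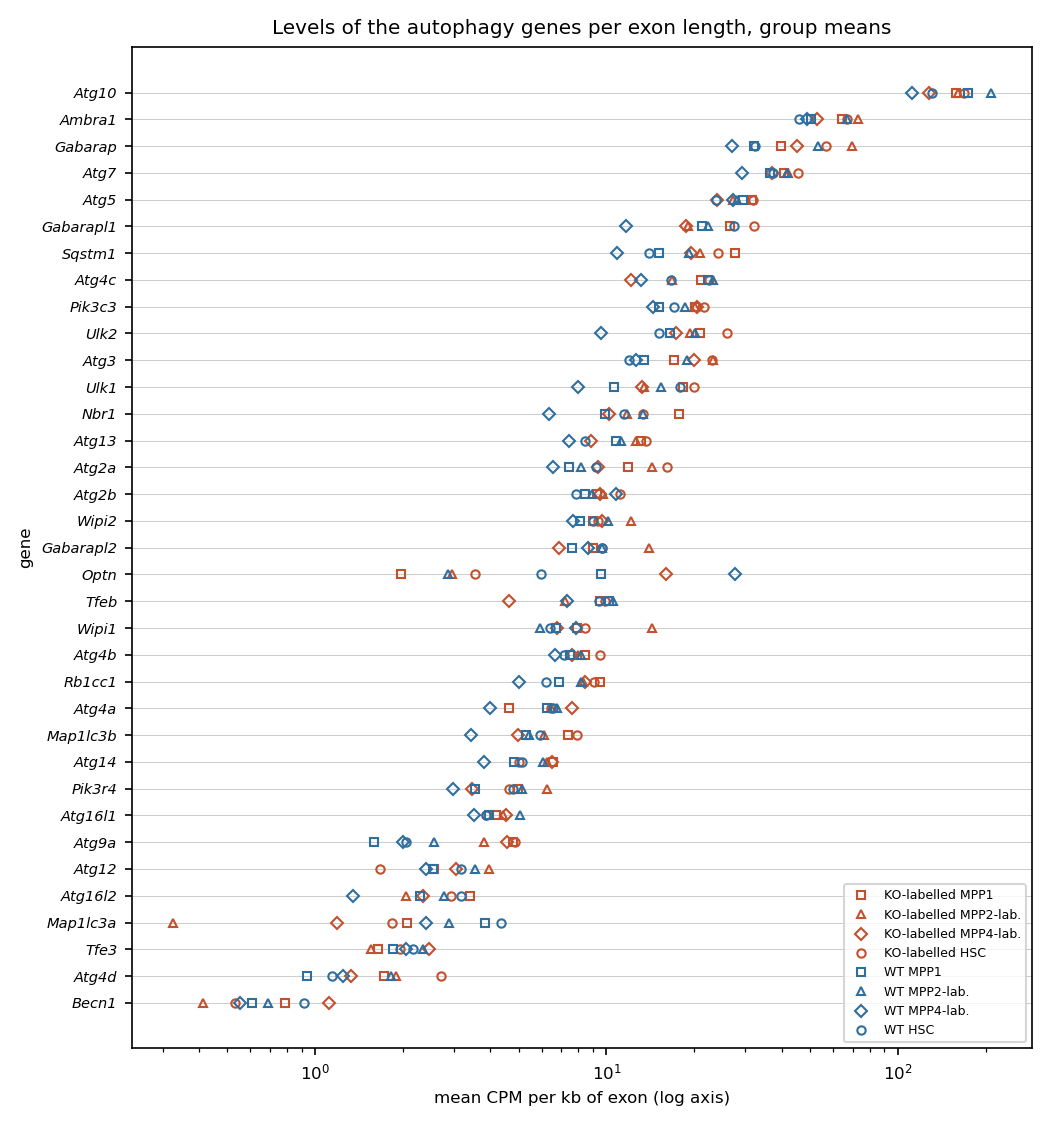
Level of each of the 35 members, in CPM per kb of annotated exon on a log axis, as 1 point per group mean of 3 libraries, ordered by the mean over the 8 groups. Atg10 lies highest, with group means of 112 to 209, and Becn1 lowest, with a mean of 0.703.

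Between KO-labelled and WT libraries, more members were called higher than lower in HSC, MPP1 and MPP4-labelled libraries, as were more of the other genes at their expression level. In HSC 11 of the 35 members rose and 1 fell by edgeR's quasi-likelihood test at an adjusted p under 0.05, where 18.3% of all genes tested rose and 24.8% fell. In MPP1 7 rose and 1 fell, with a background of 8.71% and 4.9%. In MPP2-labelled libraries 2 rose and 0 fell, with a background of 3.73% and 4.17%, and in MPP4-labelled libraries 9 rose and 0 fell, with a background of 11.4% and 6.47%. The 0 called lower compare with 2 members at an unadjusted p under 0.05 in each of these groups, and with 1 member in each by DESeq2. The direction of a call depended on expression level across the whole table: among the 8510 genes that averaged 20 CPM or more, 43.5% rose and 16.2% fell in HSC, against 10 and 1 of the 29 members at that level. The shares at that level were 21.5% and 9.11% in MPP1 (6 and 1 members), 8.34% and 7.52% in MPP2-labelled (2 and 0 members) and 27.4% and 9.85% in MPP4-labelled libraries (8 and 0 members).

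The median log2 fold change of the 35 members was 0.35 in HSC, 0.31 in MPP1, 0.03 for MPP2-labelled and 0.35 for MPP4-labelled libraries. Over all genes tested it was -0.31, -0.10, -0.07 and -0.08, and over genes of at least 20 CPM 0.44, 0.23, 0.07 and 0.30. After background subtraction the members' medians were -0.01, 0.06, -0.05 and 0.10. The members called were then 0 higher and 1 lower in HSC, 1 and 1 in MPP1, 1 and 1 in MPP2-labelled, and 2 and 0 in MPP4-labelled libraries. Of all 18507 genes tested there, 4.56% rose and 4.32% fell in HSC, 3.32% and 2.79% in MPP1, 1.63% and 3.05% in MPP2-labelled, and 4.59% and 2.82% in MPP4-labelled libraries. In HSC the 0 called higher compare with 3 members at an unadjusted p under 0.05, and in MPP4-labelled libraries the 0 called lower compare with 2. The scaling of libraries mattered too: the median of all genes moved to -0.46 in HSC with median-of-ratios size factors and to -0.65 with the total count alone, and the members' median to 0.19 and 0.01. Calls higher were 42.4% of all calls in HSC, and 33.8% and 21.9% under those scalings. They were 64%, 52.2% and 43.0% in MPP1, and 63.8%, 44.1% and 44.3% in MPP4-labelled libraries. Among the members the same share was 91.7%, 80.0% and 60.0% in HSC and 100%, 80.0% and 80.0% in MPP4-labelled libraries. The count of members called higher depended on single libraries: it was 6 in HSC without WT HSC replicate 3, 4 in MPP1 without replicate 2 of either genotype or KO-labelled replicate 3, 1 in MPP2-labelled libraries without WT replicate 2, WT replicate 3 or KO-labelled replicate 1, and 5 in MPP4-labelled libraries without WT replicate 3. The 1 member called lower in HSC was lost without replicate 1 of either genotype, WT replicate 2 or KO-labelled replicate 3.

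**Figure D2:**
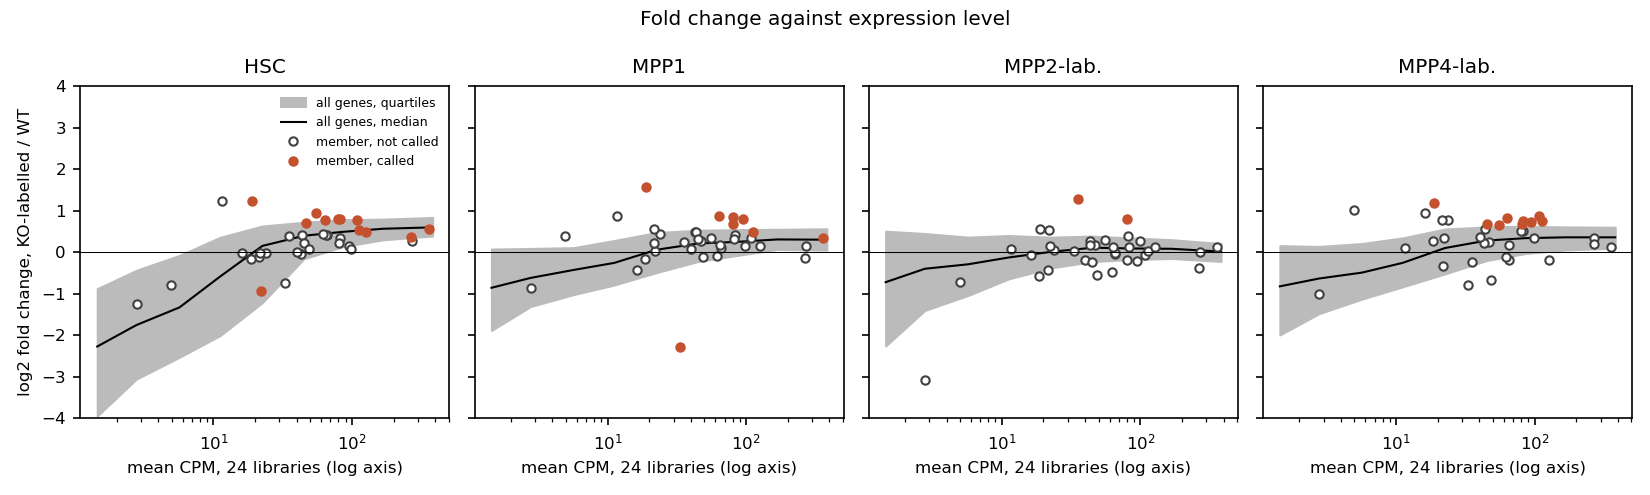
Log2 fold change of KO-labelled over WT, as deposited, against the mean CPM of 24 libraries on a log axis in 4 populations, with members as points (filled where called) and the median and quartiles of all genes by level as a line and a grey band. In HSC the line runs from -2.27 below 2 CPM to 0.60 in the highest bin, and the lowest point in the MPP2-labelled panel is Map1lc3a, fitted on 2, 0 and 1 KO-labelled counts.

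**Figure D3:**
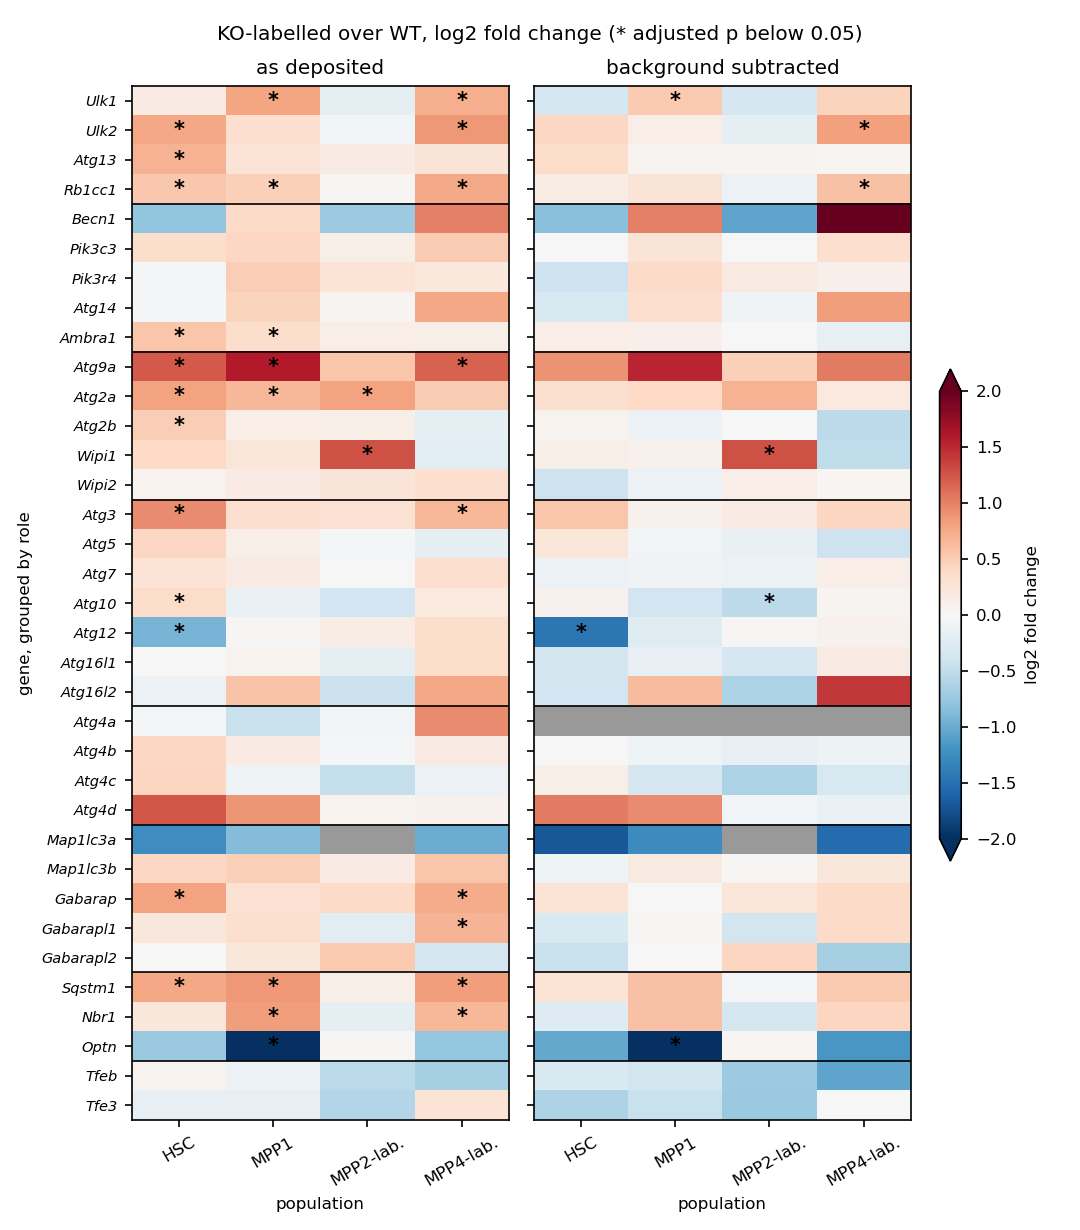
Log2 fold change of KO-labelled over WT for the 35 members in 4 populations, as deposited and after background subtraction, with stars at an adjusted p below 0.05. Colours end at -2 and 2, and grey marks Map1lc3a in MPP2-labelled libraries, where KO-labelled counts were 2, 0 and 1, and Atg4a after subtraction, where the expected background exceeds its count. Most stars of the first panel are in the HSC and MPP4-labelled columns, and 7 stars stand in the second panel.

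In the ULK1 kinase complex, 3 of 4 members rose in HSC, 2 in MPP1 and 3 in MPP4-labelled libraries. Of genes of at least 20 CPM, 43.5%, 21.5% and 27.4% rose in these populations, in that order. Ulk1 (ENSMUSG00000029512.12) encodes the kinase that starts autophagosome formation. In MPP1 it was at 134, 116 and 107 CPM in the KO-labelled libraries and 79.1, 66.4 and 61.3 CPM in the WT libraries, where CPM is here and below on totals scaled by TMM. Each KO-labelled library was above every WT library, a log2 fold change of 0.79 ± 0.16 (SE, adjusted p = 0.000471, edgeR) and of 0.52 ± 0.15 after background subtraction (adjusted p = 0.0381). In MPP4-labelled libraries Ulk1 was at 93.4, 77 and 85.7 CPM in KO-labelled and 50.5, 52.8 and 51.6 CPM in WT libraries. These groups did not overlap either (0.72 ± 0.17, adjusted p = 0.00137), and the call was lost after subtraction (0.44, adjusted p = 0.0832). In HSC, with 152, 124 and 113 CPM in KO-labelled and 129, 118 and 101 CPM in WT libraries, the groups overlapped and the difference was 0.16 ± 0.16 (adjusted p = 0.431).

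Ulk2 encodes a related kinase that can stand in for ULK1. It was at 134, 178 and 154 CPM in KO-labelled and 77.6, 87.3 and 108 CPM in WT HSC, with no overlap between groups (0.77 ± 0.17, adjusted p = 0.00023). In MPP4-labelled libraries it was at 105, 94.4 and 113 CPM in KO-labelled and 67, 40.5 and 63.9 CPM in WT libraries, again apart (0.87 ± 0.17, adjusted p = 0.000206). That call held after subtraction (0.82 ± 0.20, adjusted p = 0.014), and the call in HSC did not (0.41, adjusted p = 0.195). Rb1cc1, which encodes the scaffold FIP200, was at 122, 109 and 140.4 CPM in KO-labelled and 64.9, 83.2 and 72.4 CPM in WT MPP4-labelled libraries, again with no overlap (0.75 ± 0.16, adjusted p = 0.000541). After subtraction it was at 0.58 ± 0.16 (adjusted p = 0.0305). As deposited Rb1cc1 was also called in HSC (0.54, adjusted p = 0.0054) and in MPP1 (0.48, adjusted p = 0.0341). Neither call held after subtraction (0.15, adjusted p = 0.622 in HSC, and 0.25, adjusted p = 0.467 in MPP1), and that in MPP1 was also lost with DESeq2 and with median-of-ratios size factors. Both were lost with the total count alone, and that in HSC also in a fit limited to the libraries compared. Atg13, the adaptor of the complex, was called in HSC as deposited and not after subtraction (0.70 ± 0.26, adjusted p = 0.0282, and 0.37 and 0.515 after subtraction), and its differences elsewhere were 0.28 in MPP1, 0.17 for MPP2-labelled and 0.25 for MPP4-labelled libraries. Its call in HSC was also lost with DESeq2, median-of-ratios size factors, the total count alone and a fit limited to the libraries compared. In MPP2-labelled libraries none of the 4 was called, and Ulk1 stood at 101, 74.4 and 86.6 CPM in KO-labelled and 98.3, 106 and 95 CPM in WT libraries. Leaving out single libraries ended the call of Rb1cc1 in HSC without KO-labelled replicate 2 (adjusted p = 0.0792), that of Rb1cc1 in MPP1 without any 1 of its 6 libraries (adjusted p of 0.0561 to 0.107), and that of Atg13 in HSC without WT replicate 1, WT replicate 3 or KO-labelled replicate 3 (adjusted p of 0.0639 to 0.146).

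**Figure D4:**
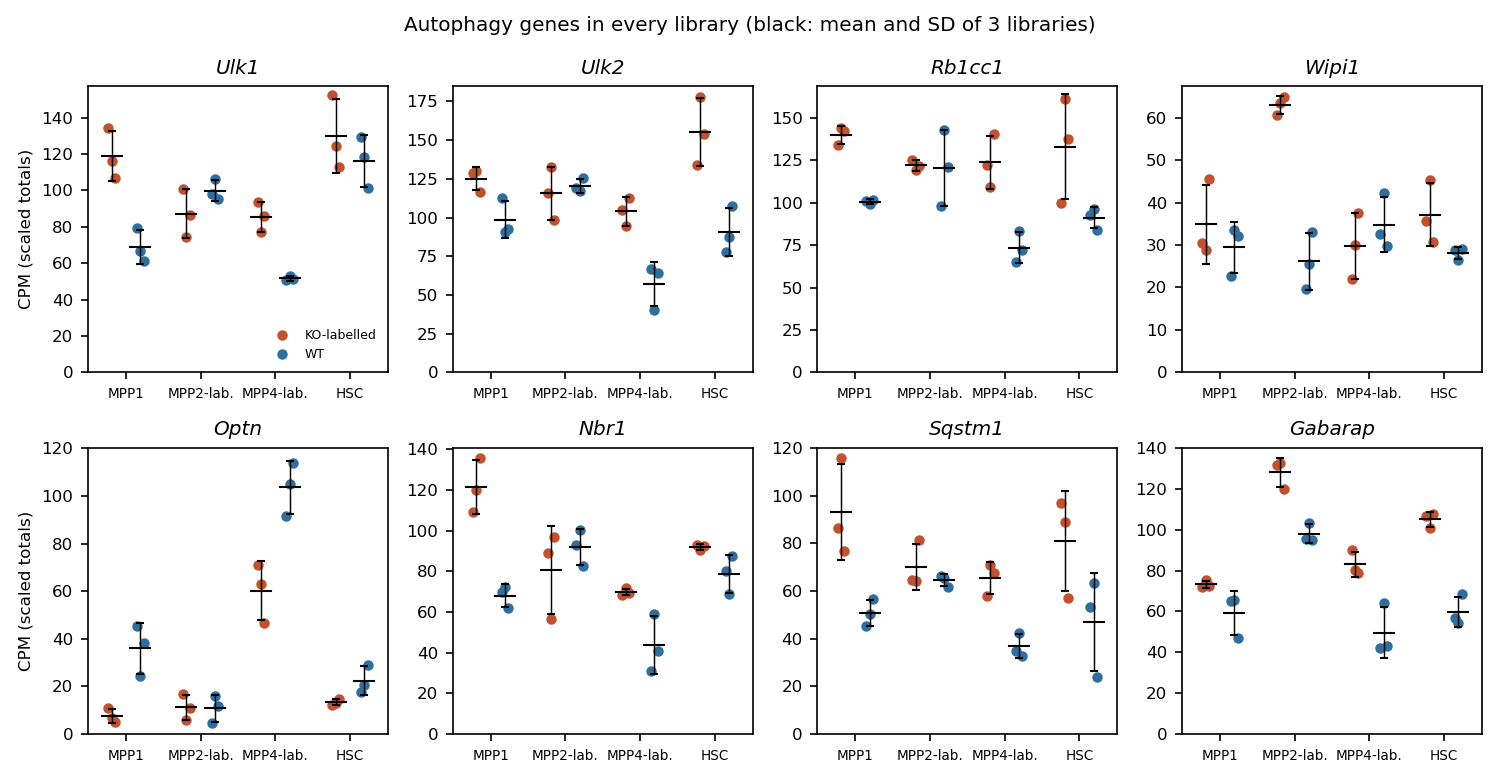
CPM of selected members in each of the 24 libraries, on axes that start at 0, with 1 point per library, black lines at the mean ± SD of 3 libraries and KO-labelled left of WT in each population. Optn is lower in every KO-labelled MPP1 library than in every WT MPP1 library and highest in the MPP4-labelled groups, and Ulk1 is higher in the KO-labelled than in the WT libraries of MPP1 and MPP4-labelled cells.

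In the class III PI3-kinase complex, Ambra1 was the member called. It was at 374, 389 and 470.4 CPM in KO-labelled and 277, 260.5 and 303 CPM in WT HSC. No KO-labelled library reached down to a WT library, a difference of 0.55 ± 0.10 (adjusted p = 2.59e-05, edgeR), the smallest p of any member in HSC. After subtraction it was 0.14 (adjusted p = 0.464). In MPP1 Ambra1 averaged 393 ± 51.4 CPM in KO-labelled and 309 ± 26.9 CPM in WT libraries (0.35 ± 0.10, adjusted p = 0.0147), a call lost after subtraction (0.10, adjusted p = 0.744) and without replicate 2 of either genotype or KO-labelled replicate 3 (adjusted p of 0.0564 to 0.158). It was also lost with DESeq2 and with median-of-ratios size factors, and the calls of Ambra1 in HSC and in MPP1 both ended with the total count alone. The lipid kinase gene Pik3c3, its regulatory partner Pik3r4 and the autophagy-specific subunit Atg14 were called in no single population. Their differences as deposited ran from -0.04 for Pik3r4 in HSC to 0.77 for Atg14 in MPP4-labelled libraries. Becn1 was at 5.92, 4.73 and 0.632 CPM in KO-labelled and 6.1, 8.22 and 5.14 CPM in WT HSC, and at 6.41, 2.7 and 14.5 CPM in KO-labelled and 4.78, 2.46 and 4.44 CPM in WT libraries of the MPP4-labelled group. The groups overlapped in both populations and its adjusted p was 0.422 and 0.395. With 2 to 47 counts per library, its precision was low, and 86.6% of its count in WT MPP4-labelled libraries was expected from background.

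Among genes of ATG9 vesicles and lipid transfer, 3 of 5 members rose in HSC, 2 in MPP1, 2 for MPP2-labelled and 1 for MPP4-labelled libraries. Of genes of at least 20 CPM, 43.5%, 21.5%, 8.34% and 27.4% rose, in that order. Atg9a, the lipid scramblase of the vesicles that seed the membrane, was at 34.4, 21.8 and 26.3 CPM in KO-labelled and 10.3, 8.55 and 8.68 CPM in WT MPP1. Each KO-labelled library exceeded every WT library, by 1.58 ± 0.41 (adjusted p = 0.00571, edgeR) and by 1.52 ± 0.48 after subtraction (adjusted p = 0.0651). It was also called in HSC (1.23 ± 0.40, adjusted p = 0.0132) and in MPP4-labelled libraries (1.18 ± 0.40, adjusted p = 0.0364), where the groups overlapped. After subtraction it was at 0.90 in HSC (adjusted p = 0.234) and 1.04 in MPP4-labelled libraries (adjusted p = 0.204), so that no call in a single population held, and that in MPP4-labelled libraries was also lost with no filter, with median-of-ratios size factors and in a fit limited to the libraries compared. As given above, part of its exon bases lies in neighbours on the same strand. Atg2a, which encodes a bridge that moves lipid into the growing membrane, was at 123, 103 and 105 CPM in KO-labelled and 85.2, 54.1 and 48.8 CPM in WT MPP2-labelled libraries (0.81 ± 0.22, adjusted p = 0.0122). It rose in HSC by 0.81 ± 0.21 (adjusted p = 0.00254) and in MPP1 by 0.67 ± 0.22 (adjusted p = 0.0322), and none of these 3 calls held after subtraction (0.32, adjusted p = 0.42 in HSC, 0.40, adjusted p = 0.418 in MPP1, and 0.69, adjusted p = 0.117 for MPP2-labelled libraries). Expected background was 0.838% of the count of Atg2a in KO-labelled and 4.67% in WT HSC. The call of Atg2a in MPP1 was also lost with DESeq2, with median-of-ratios size factors and, as in HSC, with the total count alone. Its paralog Atg2b was called in HSC (0.49 ± 0.16, adjusted p = 0.0124), with overlapping groups, and lost that call after subtraction (0.07, adjusted p = 0.845), with DESeq2, with median-of-ratios size factors and in a fit limited to the libraries compared.

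Wipi1, which encodes a reader of the lipid made by the PI3-kinase complex, gave the only increase in MPP2-labelled libraries that held after subtraction. It was at 60.5, 63.4 and 64.8 CPM in KO-labelled and 19.7, 25.6 and 33.2 CPM in WT MPP2-labelled libraries. The highest WT library lay well below the lowest KO-labelled library, with a difference of 1.27 ± 0.28 (adjusted p = 0.00161, edgeR) and the same value after subtraction (1.27 ± 0.31, adjusted p = 0.0145). Elsewhere its differences were 0.40 in HSC, 0.24 in MPP1 and -0.23 in MPP4-labelled libraries, none called. Wipi2, which recruits ATG16L1 to the membrane, was called in no population, with differences of 0.07 in HSC, 0.16 in MPP1, 0.26 for MPP2-labelled and 0.33 for MPP4-labelled libraries. Without single libraries, the calls lost among these 5 genes were Atg9a in HSC (without WT replicate 1 or 3, adjusted p of 0.0549 to 0.0971), Atg9a in MPP4-labelled libraries (without any 1 library other than KO-labelled replicate 1, 0.0653 to 0.201), Atg2b in HSC (without WT replicate 3 or KO-labelled replicate 2, 0.108 to 0.11), Atg2a in MPP1 (without WT replicate 2 or 3 or KO-labelled replicate 1 or 3, 0.0525 to 0.199) and Atg2a in MPP2-labelled libraries (without WT replicate 2 or 3 or KO-labelled replicate 1, 0.0618 to 0.109).

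Of the 7 genes of ATG12 and ATG8 conjugation, 2 rose and 1 fell in HSC, and 1 rose in MPP4-labelled libraries. Of genes of at least 20 CPM, 43.5% rose and 16.2% fell in HSC, and 27.4% rose in MPP4-labelled libraries. Atg3, the enzyme that attaches ATG8 proteins to lipid, was at 72.1, 74.3 and 72.3 CPM in KO-labelled and 38.5, 40.3 and 34.9 CPM in WT HSC. The KO-labelled libraries were close to each other and all above WT (0.94 ± 0.23, adjusted p = 0.000915, edgeR), and after subtraction the difference was 0.56 (adjusted p = 0.144). In MPP4-labelled libraries its groups overlapped (0.66 ± 0.23, adjusted p = 0.0358), and the call ended after subtraction (0.43, adjusted p = 0.317) and without WT replicate 2 or 3 or KO-labelled replicate 1 or 3 (adjusted p of 0.0894 to 0.261). That call was also lost with DESeq2, median-of-ratios size factors, the total count alone and a fit limited to the libraries compared. Atg12, the ubiquitin-like protein joined to ATG5, went the other way. It was at 12.9, 18.6 and 7.27 CPM in KO-labelled and 28.8, 23.3 and 21.4 CPM in WT HSC. The groups did not overlap and the difference was -0.93 ± 0.36 as deposited (adjusted p = 0.0359) and -1.44 ± 0.38 after subtraction (adjusted p = 0.0184), but the call was lost without WT replicate 1 or 2 or KO-labelled replicate 1 or 3 (adjusted p of 0.0609 to 0.205) and with no filter on low counts. Outside HSC Atg12 differed by 0.02 in MPP1, 0.15 for MPP2-labelled and 0.35 for MPP4-labelled libraries.

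Atg10 was called higher in HSC, by 0.37 ± 0.13 (adjusted p = 0.0153, edgeR) with overlapping groups, and that call was lost after subtraction (0.09, adjusted p = 0.763) and without WT replicate 1 or 3 or KO-labelled replicate 1 or 3 (adjusted p of 0.057 to 0.0965). Median-of-ratios size factors (adjusted p = 0.149), DESeq2 (0.153), a fit limited to the libraries compared (0.191) and the total count alone (0.847) also ended it. In MPP2-labelled libraries Atg10 was at 281, 266 and 283 CPM in KO-labelled and 346, 381 and 351 CPM in WT libraries. Every KO-labelled library was below every WT library. The difference of -0.38 ± 0.12 narrowly missed the threshold as deposited (adjusted p = 0.0521) and passed it after subtraction (-0.53, adjusted p = 0.036). The activating enzyme gene Atg7, the conjugate partner Atg5 and the scaffold genes Atg16l1 and Atg16l2 were called in no single population. For Atg7 the differences were 0.28 in HSC, 0.16 in MPP1, 0.01 for MPP2-labelled and 0.33 for MPP4-labelled libraries. For Atg5 they were 0.41, 0.11, -0.04 and -0.18 in the same order.

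None of the 4 ATG4 proteases was called in any of the 4 populations by edgeR, although Atg4d in HSC and Atg4a in MPP4-labelled libraries had an unadjusted p under 0.05. Atg4a was at 0.94 ± 0.43 in MPP4-labelled libraries (adjusted p = 0.126). Atg4d was at 1.24 ± 0.53 in HSC (adjusted p = 0.0523) and 0.88 ± 0.53 in MPP1 (adjusted p = 0.312), with a mean of 11.6 CPM over all libraries. Atg4a was the 1 member whose count was below the background expected for its span, with 60.5% of its count expected from background in KO-labelled HSC, 190% in WT HSC and 398% in WT MPP4-labelled libraries, so its own values after subtraction are not given. The counts and medians of members after subtraction include it. Atg4b, the main protease for the LC3 family, differed by 0.41 in HSC, 0.17 in MPP1, -0.03 for MPP2-labelled and 0.18 for MPP4-labelled libraries.

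Of the 5 ATG8 genes, Gabarap rose in HSC and in MPP4-labelled libraries, and Gabarapl1 was called higher in MPP4-labelled libraries under the main settings alone. Gabarap was at 107, 101 and 108 CPM in KO-labelled and 56.8, 54.1 and 68.3 CPM in WT HSC, and at 90.0, 80.3 and 78.6 CPM in KO-labelled and 41.8, 64 and 43 CPM in WT libraries of the MPP4-labelled group. The groups did not overlap in either population. The differences were 0.81 ± 0.17 (adjusted p = 0.000229, edgeR) and 0.74 ± 0.18 (adjusted p = 0.00216), and both calls were lost after subtraction (0.27, adjusted p = 0.291 in HSC, and 0.38, adjusted p = 0.173 in MPP4-labelled libraries). Expected background was only 0.182% of the count of Gabarap in KO-labelled and 1.03% in WT HSC. In MPP4-labelled libraries it was 0.623% and 1.53%. The scaling of libraries also changed in that fit. A fit limited to the libraries compared ended the call in MPP4-labelled libraries too (adjusted p = 0.052). Gabarapl1 averaged 37.7 ± 8.03 CPM in KO-labelled and 23.6 ± 2.83 CPM in WT MPP4-labelled libraries (0.68 ± 0.25, adjusted p = 0.0489), a call close to the threshold. It was lost under all 8 alternative settings, background subtraction among them (0.38, adjusted p = 0.376), and without any 1 of the 6 libraries other than KO-labelled replicate 2 (adjusted p of 0.0543 to 0.152). Map1lc3b, the LC3 gene most used as an autophagosome marker, was at 29.6, 74 and 75.5 CPM in KO-labelled and 48.5, 49.3 and 36 CPM in WT HSC. The first KO-labelled library lay below every WT library and the others above, and the gene was called in no population (adjusted p = 0.258 in HSC, 0.334 in MPP1, 0.818 for MPP2-labelled and 0.232 for MPP4-labelled libraries). Map1lc3a was near the detection limit, with 0 to 15 counts per KO-labelled and 3 to 26 counts per WT library. Gabarapl2 was called nowhere, with differences of -0.01 in HSC, 0.23 in MPP1, 0.53 for MPP2-labelled and -0.33 for MPP4-labelled libraries.

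The 3 cargo receptor genes moved in opposite directions in MPP1, where Optn fell and Sqstm1 and Nbr1 rose. Optn (ENSMUSG00000026672.12), a receptor for damaged mitochondria and bacteria, was the largest change of any called member in a single population. It was at 10.7, 6.6 and 4.97 CPM in KO-labelled and 45.6, 24.5 and 38.1 CPM in WT MPP1. The lowest WT library was above the highest KO-labelled library, and the difference was -2.29 ± 0.37 (adjusted p = 1.15e-05, edgeR) as deposited and -3.77 ± 0.75 after subtraction (adjusted p = 0.00196). Of its count, 65.3% was expected from background in KO-labelled and 20.7% in WT MPP1. The KO-labelled MPP1 libraries held 32, 23 and 17 counts, so the size after subtraction rests on few counts and is uncertain. In MPP4-labelled libraries, with 71.1, 62.9 and 46.7 CPM in KO-labelled and 91.8, 105 and 114 CPM in WT libraries, and in HSC, with 12.2, 13.2 and 14.5 CPM in KO-labelled and 17.5, 20.7 and 29.1 CPM in WT libraries, every KO-labelled library was also below every WT library. Neither difference passed the test (-0.78 ± 0.32, adjusted p = 0.0858, and -0.75 ± 0.35, adjusted p = 0.0822). In MPP2-labelled libraries it was at 16.7, 5.8 and 10.9 CPM in KO-labelled and 4.68, 15.8 and 11.8 CPM in WT libraries, with overlapping groups and a difference of 0.03 ± 0.38.

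Sqstm1, which encodes the receptor p62, was called higher in HSC, MPP1 and MPP4-labelled libraries. It was at 86.6, 116 and 76.9 CPM in KO-labelled and 45.3, 50.5 and 56.6 CPM in WT MPP1. The groups were separate (0.87 ± 0.24, adjusted p = 0.00812, edgeR). In HSC, at 96.9, 88.8 and 57.2 CPM in KO-labelled and 53.5, 63.4 and 24 CPM in WT libraries, they overlapped (0.78 ± 0.24, adjusted p = 0.00759). In MPP4-labelled libraries the difference was 0.83 ± 0.24 (adjusted p = 0.0119). Nbr1, a receptor that works together with SQSTM1, was at 109, 120.0 and 136 CPM in KO-labelled and 70.0, 72.4 and 61.9 CPM in WT MPP1, with no overlap (0.84 ± 0.19, adjusted p = 0.00163), and was also called in MPP4-labelled libraries (0.67 ± 0.20, adjusted p = 0.0132). None of these 5 calls held after subtraction, where Sqstm1 was at 0.28 in HSC (adjusted p = 0.538), 0.58 in MPP1 (0.242) and 0.52 for MPP4-labelled libraries (0.26), and Nbr1 at 0.58 in MPP1 (0.116) and 0.43 for MPP4-labelled libraries (0.25). Expected background was 0.718% of the count of Sqstm1 in KO-labelled and 3.89% in WT HSC. Leaving out 1 library ended the calls of Sqstm1 in HSC (without WT replicate 3 or KO-labelled replicate 1, adjusted p of 0.0553 to 0.106), in MPP1 (without KO-labelled replicate 2, 0.094) and in MPP4-labelled libraries (without WT replicate 3, 0.0514), and that of Nbr1 in MPP4-labelled libraries (without WT replicate 1, 0.125). In MPP4-labelled libraries both genes also lost their calls with median-of-ratios size factors and with the total count alone. DESeq2 and a fit limited to the libraries compared ended that of Nbr1 there. In HSC Sqstm1 was not called with the total count alone or in a fit limited to the libraries compared.

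The transcription factor genes Tfeb and Tfe3 were called in no population. Tfeb was at 36.6, 38.8 and 92.2 CPM in KO-labelled and 61, 35.8 and 63.7 CPM in WT HSC, and Tfe3 at 16.4, 22 and 15.8 CPM in KO-labelled and 16.1, 10.3 and 34 CPM in WT libraries. The spread within both genotypes covered the difference between them. Differences of Tfeb were 0.07 ± 0.31 in HSC, -0.11 ± 0.31 in MPP1, -0.54 ± 0.32 for MPP2-labelled and -0.66 ± 0.33 for MPP4-labelled libraries, whose adjusted p was 0.878, 0.875, 0.349 and 0.163 by edgeR. For Tfe3 they were -0.16 ± 0.42, -0.17 ± 0.42, -0.58 ± 0.43 and 0.27 ± 0.42 in that order, whose adjusted p was 0.784, 0.849, 0.476 and 0.709.

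Averaged over the 4 populations, 15 members rose and 2 fell by edgeR, where 22.9% and 30.3% of all genes did. Of genes of at least 20 CPM 51.6% rose and 19.1% fell, against 14 and 1 of the 29 members at that level. After background subtraction 4 rose and 2 fell, where 9.79% and 14% of all genes did. Calls higher were 43.1% of all calls, and 34.2% with median-of-ratios size factors and 28.1% with the total count alone. The 4 were Atg9a (1.13 as deposited and 0.99 after subtraction, adjusted p = 0.00401), Atg2a (0.70 and 0.40, adjusted p = 0.0169), Ulk2 (0.48 and 0.29, adjusted p = 0.0374) and Gabarap (0.56 and 0.22, adjusted p = 0.0483). Optn fell both as deposited (-0.95 ± 0.18, adjusted p = 2.58e-05) and after subtraction (-1.48, adjusted p = 0.00266). Tfeb was called lower after subtraction (-0.61, adjusted p = 0.0405) and not as deposited (-0.31, adjusted p = 0.096). Called higher as deposited alone were Ulk1, Atg13, Rb1cc1, Pik3c3, Ambra1, Wipi1, Atg3, Atg7, Map1lc3b, Sqstm1 and Nbr1, and Map1lc3a was called lower as deposited (adjusted p = 0.015) and just missed the threshold after subtraction (adjusted p = 0.062). Its fold is not given because of its few counts. The average of Atg7 changed sign, at 0.20 as deposited (adjusted p = 0.00758) and -0.04 after subtraction (adjusted p = 0.783). The calls of Atg13 ended without WT MPP4-labelled replicate 1 or KO-labelled HSC replicate 3 (adjusted p of 0.0508 to 0.0556), and those of Map1lc3b without WT MPP4-labelled replicate 2, KO-labelled HSC replicate 3 or KO-labelled MPP1 replicate 1 (0.0547 to 0.0601). With DESeq2 and with median-of-ratios size factors the averages of Atg13, Pik3c3, Atg7 and Map1lc3b were not called, nor was that of Wipi1 with these size factors.

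Whether the difference between genotypes itself varied between populations was tested with the interaction term, which called 6 members, Ulk1, Ulk2, Wipi1, Atg10, Nbr1 and Optn, where 17.7% of all genes and 34.3% of those of at least 20 CPM were called. For Ulk1 (adjusted p = 0.00263 as deposited and 0.00639 after subtraction, edgeR) the differences were 0.16 in HSC, 0.79 in MPP1, -0.20 for MPP2-labelled and 0.72 for MPP4-labelled libraries. Ulk1 was the 1 member called after subtraction, where 6.15% of all genes were.

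Among WT populations, the 3 comparisons of MPP1, MPP2-labelled and MPP4-labelled libraries against HSC share the WT HSC libraries, so their values are not independent. In WT MPP1, 1 member was higher and 1 lower than in WT HSC, where 1.97% and 1.83% of all genes were, and 4.61% and 4.57% of those of at least 20 CPM. Both calls held after subtraction, with 2.65% and 1.71% of all genes called. Ulk1 was lower, at 79.1, 66.4 and 61.3 CPM in WT MPP1 and 129, 118 and 101 CPM in WT HSC (-0.75 ± 0.16, adjusted p = 0.00215, edgeR). Atg10 was higher, at 261, 333 and 302 CPM in WT MPP1 and 213, 253 and 206 CPM in WT HSC. The groups of Ulk1 and of Atg10 did not overlap, but the call of Atg10 was close to the threshold (0.41 ± 0.12, adjusted p = 0.049) and ended without WT HSC replicate 1 or 3 or WT MPP1 replicate 2 or 3 (adjusted p of 0.154 to 0.349) and with the replicate number as a block (adjusted p = 0.0552).

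In WT MPP2-labelled libraries 4 members were higher and 1 lower than in WT HSC, where 11.7% and 7.37% of all genes were, and 27.6% and 13.1% of those of at least 20 CPM. After subtraction 1 was higher and 1 lower, with 6.58% and 4.02% of all genes. Atg10 was at 346, 381 and 351 CPM in WT MPP2-labelled libraries and 213, 253 and 206 CPM in WT HSC, a difference of 0.68 ± 0.12 (adjusted p = 4.97e-05, edgeR). It was the 1 of the 4 that held after subtraction (0.58, adjusted p = 0.0105). Ambra1 was at 392, 404 and 433 CPM in WT MPP2-labelled libraries and 277, 260.5 and 303 CPM in WT HSC (0.55 ± 0.10, adjusted p = 5.41e-05), and Gabarap at 95.5, 103 and 95 CPM in WT MPP2-labelled libraries and 56.8, 54.1 and 68.3 CPM in WT HSC (0.71 ± 0.17, adjusted p = 0.00202). In all 3 genes every MPP2-labelled library was above every HSC library. The fourth was Atg3 (0.65, adjusted p = 0.0366). After subtraction Ambra1 was at 0.32 (adjusted p = 0.0616), Gabarap at 0.40 (0.132) and Atg3 at 0.45 (0.286). Optn was lower, at 4.68, 15.8 and 11.8 CPM in WT MPP2-labelled libraries and 17.5, 20.7 and 29.1 CPM in WT HSC (-1.05 ± 0.36, adjusted p = 0.0321). After subtraction the difference of Optn missed the threshold (-1.56, adjusted p = 0.17). Its WT MPP2-labelled counts were 15, 55 and 37, with 38.8% expected from background, so that size is uncertain. Ulk1 passed the threshold after subtraction, lower, at -0.53 (adjusted p = 0.0203), against -0.22 as deposited (adjusted p = 0.38). The call of Atg3 ended without any 1 of the 6 libraries other than WT MPP2-labelled replicate 1 (adjusted p of 0.0603 to 0.179), and that of Optn without WT HSC replicate 2 or 3 or WT MPP2-labelled replicate 1 or 3 (0.0508 to 0.252). The calls of Atg3 and Gabarap ended with the total count alone, and that of Atg3 also with median-of-ratios size factors. Calls higher were 61.4% of all calls here, and 53.5% with median-of-ratios size factors and 37.2% with the total count alone.

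In WT MPP4-labelled libraries 1 member was higher and 5 were lower than in WT HSC, where 2.91% and 7.43% of all genes were, and 6.33% and 17.2% of those of at least 20 CPM. Optn was at 91.8, 105 and 114 CPM in WT MPP4-labelled libraries and 17.5, 20.7 and 29.1 CPM in WT HSC. Every MPP4-labelled library was far above the highest HSC library, a difference of 2.21 ± 0.34 (adjusted p = 3.59e-06, edgeR) and of 2.79 after subtraction (adjusted p = 0.00458). Ulk1 was at 50.5, 52.8 and 51.6 CPM in WT MPP4-labelled libraries and 129, 118 and 101 CPM in WT HSC (-1.17 ± 0.17, adjusted p = 6.79e-07). Gabarapl1 was at 23, 21.1 and 26.6 CPM in WT MPP4-labelled libraries and 46.8, 54.1 and 65.1 CPM in WT HSC (-1.23 ± 0.25, adjusted p = 0.000262) and Nbr1 at 31.1, 59.1 and 40.7 CPM in WT MPP4-labelled libraries and 80.3, 68.7 and 87.4 CPM in WT HSC (-0.85 ± 0.20, adjusted p = 0.00191). In these 3 genes no MPP4-labelled library reached the lowest HSC library. The other two were Ulk2 (-0.67, adjusted p = 0.00487) and Atg16l2 (-1.22, adjusted p = 0.0234). After subtraction 2 members were higher and 5 lower, where 4.3% and 7.2% of all genes were. Atg2b joined the higher (0.64, adjusted p = 0.0125) and Pik3r4 the lower (-0.80, adjusted p = 0.0358), and Atg16l2 missed the threshold (-2.11, adjusted p = 0.0635). Atg16l2 had 21, 69 and 27 counts in WT MPP4-labelled libraries. Of these, 67.5% was expected from background, against 23.6% in WT HSC, so the size of its difference after subtraction is uncertain. The call of Ulk2 ended without WT HSC replicate 3 or WT MPP4-labelled replicate 2 (adjusted p of 0.0649 to 0.109) and that of Atg16l2 without WT HSC replicate 1 or 3 or WT MPP4-labelled replicate 1 or 3 (0.079 to 0.199), so that without WT HSC replicate 3 the members lower were 3. Without WT HSC replicate 2 or WT MPP4-labelled replicate 2 the members higher were 2. Calls higher were 28.2% of all calls, and 44.6% with median-of-ratios size factors and 42.9% with the total count alone.

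The remaining counts are for related genes outside the members, from lists chosen by function and not limited to genes of at least 20 CPM. Shares of genes at that level are thus of an unlike set. In HSC, MPP1, MPP2-labelled and MPP4-labelled libraries in that order, 43.5%, 21.5%, 8.34% and 27.4% of them rose and 16.2%, 9.11%, 7.52% and 9.85% fell. Of all genes tested, 18.3%, 8.71%, 3.73% and 11.4% rose and 24.8%, 4.9%, 4.17% and 6.47% fell. After subtraction 4.56%, 3.32%, 1.63% and 4.59% of all genes rose and 4.32%, 2.79%, 3.05% and 2.82% fell. Of 44 lysosomal genes tested, 22 rose and 1 fell in HSC, 13 rose and 1 fell in MPP1, 9 rose in the MPP2-labelled group and 18 in the MPP4-labelled group, with median log2 fold changes of 0.63, 0.43, 0.41 and 0.64, against 0.44, 0.23, 0.07 and 0.30 over genes of at least 20 CPM. After subtraction 3, 6, 3 and 7 rose in that order, 2 fell in MPP1 and 1 in MPP4-labelled libraries. Gaa, the acid glucosidase that breaks down glycogen in lysosomes, averaged 312 ± 51.9 CPM in KO-labelled and 146 ± 18.2 CPM in WT HSC (SD, n = 3). Its differences were 1.09 ± 0.13 in HSC (adjusted p = 7.84e-09, edgeR), 1.32 ± 0.13 in MPP1 (5.74e-10), 1.30 ± 0.13 for MPP2-labelled (7.47e-10) and 1.70 ± 0.14 for MPP4-labelled libraries (1.19e-12), and all 4 were called after subtraction. The other lysosomal genes with the smallest p were the protective protein gene Ctsa (1.30) and the membrane protein gene Lamp2 (0.92) in HSC, the saposin precursor Psap (0.98) and the galactosidase Glb1 (0.92) in MPP1, the protease Ctsb (0.85) and Lamp2 (0.79) in MPP2-labelled, and Psap (1.33) and the mannosidase Man2b1 (1.38) in MPP4-labelled libraries. Of these, Lamp2 in HSC was no longer called after subtraction (0.45, adjusted p = 0.0705). Ostm1, the partner of the chloride transporter CLCN7, was the gene that fell, at -0.81 in HSC (adjusted p = 0.0238) and -0.96 in MPP1 (adjusted p = 0.0204). Its call in HSC was lost after subtraction (-0.84, adjusted p = 0.281), and that in MPP1 was just under the threshold (adjusted p = 0.0498).

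Of 22 other autophagy machinery genes tested, 9 rose in HSC, 5 rose and 1 fell in MPP1, 2 fell in MPP2-labelled libraries, and 5 rose and 1 fell in MPP4-labelled libraries. Of genes of at least 20 CPM, 43.5% rose in HSC, 21.5% in MPP1 and 27.4% in MPP4-labelled libraries. The shares that fell were 9.11% in MPP1, 7.52% for MPP2-labelled and 9.85% for MPP4-labelled libraries. After subtraction the counts of genes that rose and fell were 0 and 0, 0 and 2, 0 and 3, and 1 and 2 in that order. In HSC the 0 and 0 compare with 1 and 3 genes at an unadjusted p under 0.05. Vamp8, a SNARE of autophagosome fusion, averaged 107 ± 9.58 CPM in KO-labelled and 39.2 ± 4.12 CPM in WT MPP4-labelled libraries (1.45 ± 0.19, adjusted p = 2.92e-07, edgeR) and was called there after subtraction too (adjusted p = 0.000415). It also rose in HSC (0.93) and MPP1 (0.71), as did the lysosome adaptor Plekhm1 (0.70 and 0.71), while Rab7 rose in HSC (0.58), and the tethering genes Vps39 in MPP1 (0.53) and in MPP4-labelled libraries (0.50) and Vps18 in MPP4-labelled libraries (1.07). None of these calls of Vamp8 in HSC and MPP1, Plekhm1, Rab7, Vps39 and Vps18 held after subtraction (adjusted p of 0.0822 to 0.65). Vmp1, a scramblase of the endoplasmic reticulum, averaged 142 CPM in KO-labelled and 243 CPM in WT MPP2-labelled libraries (-0.77 ± 0.13, adjusted p = 3.84e-05; -0.95 after subtraction). The scaffold gene Wdfy3 fell in MPP1 (-0.43) and MPP2-labelled libraries (-0.50), and Tecpr1 in MPP4-labelled libraries (-1.48).

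Of 15 other cargo receptors and their regulators, 8 rose in HSC, 2 in MPP1 and 4 in MPP4-labelled libraries, and 2 fell in the MPP2-labelled group and 1 in the MPP4-labelled group, where 43.5%, 21.5% and 27.4% of genes of at least 20 CPM rose in HSC, MPP1 and MPP4-labelled libraries. After subtraction 2 rose in HSC, 1 fell in MPP2-labelled libraries, and 1 rose and 1 fell in MPP4-labelled libraries. The mitophagy receptor Bcl2l13 rose in HSC (1.06 ± 0.18, adjusted p = 9.02e-06, edgeR) and held after subtraction, as did Phb2 (1.49 ± 0.29, adjusted p = 7.36e-05). Bnip3l, a mitophagy receptor used when red cells mature, rose in HSC (0.73), MPP1 (0.54) and MPP4-labelled libraries (0.58), where it averaged 133 CPM in KO-labelled and 88.7 CPM in WT libraries. None of its calls held after subtraction (0.23, 0.24 and 0.25, adjusted p of 0.338 to 0.421). Calcoco1, a receptor for the endoplasmic reticulum, rose in MPP1 (0.96), and the ferritin receptor Ncoa4 (1.03, adjusted p = 3.01e-06) and Tax1bp1 (0.85) in MPP4-labelled libraries. The calls of Calcoco1 (adjusted p = 0.152) and Tax1bp1 (adjusted p = 0.0536) were lost after subtraction. The endoplasmic reticulum receptor Retreg1 fell in MPP2-labelled libraries (-0.85 ± 0.13, adjusted p = 1.27e-05).

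Upstream of autophagy, 13 of 36 genes of nutrient sensing rose and 1 fell in HSC, 6 rose and 1 fell in MPP1, 1 rose and 2 fell in MPP2-labelled libraries, and 8 rose in MPP4-labelled libraries. The share of genes of at least 20 CPM that rose was 43.5% in HSC, 21.5% in MPP1, 8.34% for MPP2-labelled and 27.4% for MPP4-labelled libraries. The shares that fell were 16.2%, 9.11%, 7.52% and 9.85% in that order. After subtraction 1 rose in each population, and 2, 1, 2 and 1 fell. Sesn1, an inhibitor of mTORC1, averaged 281 CPM in KO-labelled and 139 CPM in WT HSC (1.02 ± 0.13, adjusted p = 3.56e-08, edgeR), and rose in MPP1 (0.65) and MPP4-labelled libraries (0.57). Its calls in MPP1 and MPP4-labelled libraries were lost after subtraction (adjusted p = 0.0831 and 0.144). The kinase gene Mtor, whose product inhibits ULK1, rose in MPP1 (0.81) and MPP4-labelled libraries (0.54), its partner Rptor in HSC (0.55) and the mTOR inhibitor Deptor in MPP2-labelled (0.62) and MPP4-labelled libraries (0.76). Mtor in MPP4-labelled libraries (adjusted p = 0.245) and Rptor in HSC (adjusted p = 0.269) were no longer called after subtraction. Of the AMPK subunits, Prkab1 fell in HSC to 4.14 ± 2.72 CPM in KO-labelled libraries, against 21.1 ± 3.67 CPM in WT (-2.33 ± 0.41, adjusted p = 1.17e-05), and in MPP1 (-1.34, adjusted p = 0.00841). Both calls held after subtraction. The catalytic subunit gene Prkaa1 rose in HSC (1.09), Prkag2 rose in MPP1 (0.41) and fell in MPP2-labelled libraries (-0.37), and Sesn3 fell in MPP2-labelled libraries (-0.77). The calls of Prkaa1 in HSC (adjusted p = 0.0585) and Prkag2 in MPP1 (adjusted p = 0.605) were lost after subtraction. Of 7 other transcription factors of autophagy and lysosome genes, 4 rose in HSC, 1 in MPP1, 2 in the MPP2-labelled group and 4 in the MPP4-labelled group, and 2 fell in MPP2-labelled libraries, to be read against the same shares. Mitf and Tfec, relatives of TFEB, rose in HSC (both 0.64) and in MPP2-labelled libraries (0.92 ± 0.15 and 1.20 ± 0.19, adjusted p = 2.01e-05 and 1.32e-05), and Tfec in MPP4-labelled libraries (1.28). Both calls in HSC were lost after subtraction (adjusted p = 0.189 and 0.517). The repressor gene Zkscan3 rose in MPP4-labelled libraries (1.04). Foxo3 (-0.49) and Foxo1 (-0.76) fell in MPP2-labelled libraries. After subtraction the calls were 1 lower in HSC, 2 higher and 2 lower in MPP2-labelled, and 2 higher and 1 lower in MPP4-labelled libraries.

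**Figure D5:**
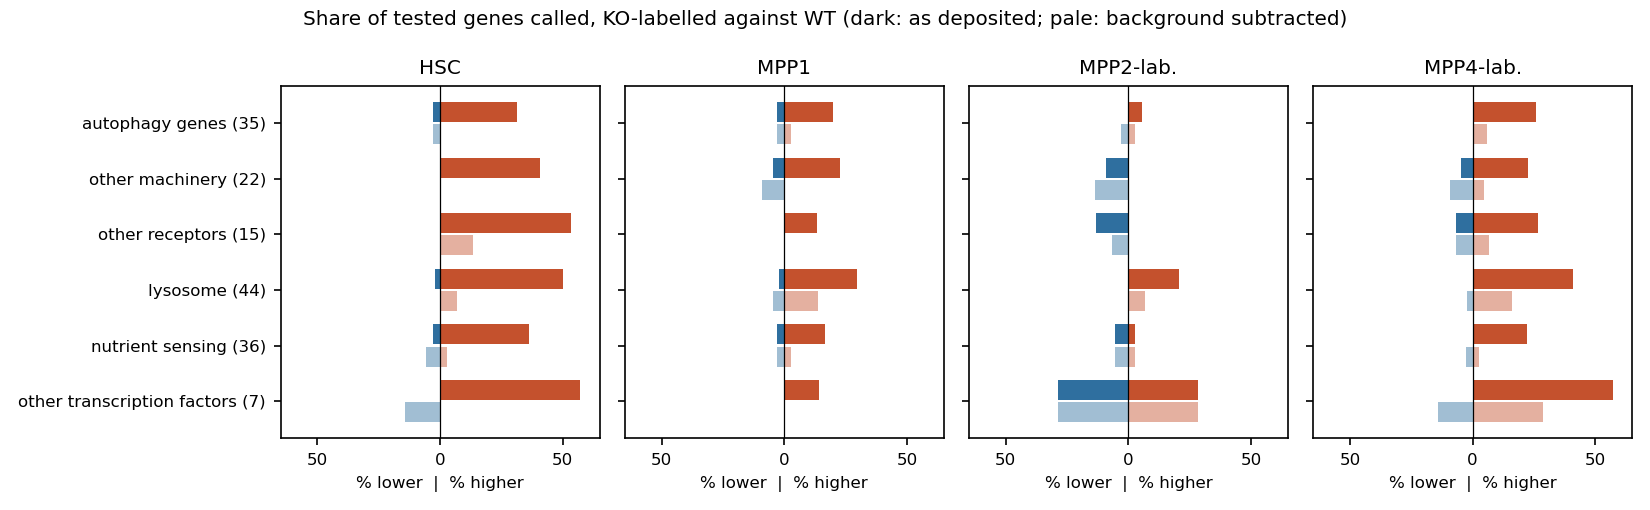
Share of tested genes called higher (right) and lower (left) in KO-labelled against WT libraries, in percent, for the members and 5 related lists in 4 populations, with the number of genes tested in brackets. Dark bars are as deposited and pale bars after background subtraction: of the 44 lysosomal genes 22 and 3 were called higher in HSC, and 18 and 7 in MPP4-labelled libraries.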

How the data were processed

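Per the labels' protocols, total RNA of sorted cells was extracted with a micro kit and made into libraries with the NEBNext Ultra II RNA kit. The deposited table holds raw counts per gene for 24 libraries, and the submitters' processing notes name build mm39, SAMtools 1.12 and DESeq2. Aligner, counter and strand setting are not given in the sources used here. The 35 members, the related lists and the tests were chosen with earlier results of these data known.

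Genes were filtered by edgeR's filterByExpr over the 8 groups, and 21964 were tested with edgeR 4.0.16 in R 4.3.3, using TMM scaling and a quasi-likelihood fit of 1 mean per group over all 24 libraries, with Benjamini-Hochberg adjustment over all genes tested and a threshold of 0.05. The common biological coefficient of variation was 0.393, with 16 residual degrees of freedom. Log2 fold changes are given with ± SE, and CPM means with ± SD over 3 libraries. For the background, counts of 1457 olfactory and vomeronasal receptor genes per kb of gene span were taken as a density in each library, and that density times a gene's span was subtracted from its count. Library totals and TMM scaling were then estimated anew on the subtracted counts. Spans came from GENCODE M21 on GRCm38, matched by gene ID for 52125 genes (91.85%), since no mm39 annotation was used here, and 18507 genes were tested after subtraction.

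Every called member is named, with library values for up to 4 per direction with the smallest p (3 among WT populations) and for Ulk1, Becn1, Map1lc3b, Sqstm1, Tfeb and Tfe3. Of each related list up to 3 called genes per direction are named, except some that are not reported here. Other genes were named after their values were seen, or as markers. The alternatives tried were no filter, a filter of 5 CPM in 3 libraries, median-of-ratios size factors, DESeq2 1.42.0, a block for the replicate number, a fit limited to the libraries compared, leaving out each library, background subtraction and, chosen after seeing the data, the total count without further scaling. The fit was tested on simulated HSC counts of 21260 genes: of 100 genes changed 1.5-fold 5 were recovered, of 100 changed 3-fold 73, and 1 of 79 calls was false. Far fewer genes were changed there than the 9462 called in HSC as deposited. The adjusted threshold was therefore stricter, and this recovery is not that of the real comparison.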

Additional observations from a re-analysis of the deposited data

Results flagged for a closer look

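For 6 members the difference between KO-labelled and WT libraries varied between populations by the interaction term of edgeR's quasi-likelihood fit over all 24 libraries, where 17.7% of all genes and 34.3% of genes of at least 20 CPM were called, so that the number of members is not above the background. Ulk1 had an adjusted p of 0.00263 and differences on the log2 scale of 0.16 in HSC, 0.79 in MPP1, -0.20 for MPP2-labelled and 0.72 for MPP4-labelled libraries. Ulk2 (0.00965) was at 0.77 in HSC, 0.34 in MPP1, -0.06 for MPP2-labelled and 0.87 for MPP4-labelled libraries. Wipi1 (0.0287) was at 1.27 for MPP2-labelled and -0.23 for MPP4-labelled libraries. Atg10 (0.0059) was at 0.37 in HSC and -0.38 in MPP2-labelled libraries. Nbr1 (0.0178) was at 0.84 in MPP1 and -0.19 in MPP2-labelled libraries. Optn (0.00792) was at -2.29 in MPP1 and 0.03 in MPP2-labelled libraries. After background subtraction the adjusted p was 0.00639 for Ulk1, 0.123 for Ulk2, 0.0612 for Wipi1, 0.123 for Atg10, 0.0948 for Nbr1 and 0.0967 for Optn. The calls of Wipi1 ended without any 1 of 7 libraries of MPP2-labelled or MPP4-labelled cells (adjusted p of 0.0505 to 0.122), and those of Nbr1 without WT or KO-labelled MPP2-labelled replicate 2 (0.0511 to 0.0628). The populations concerned include those whose markers go against their labels.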

How the results depend on the processing

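Of 67 results on single members that were called, 17 kept their call and direction under every alternative, 41 with each library left out, 20 after background subtraction and 65 with the replicate number as a block. The 17 were Ulk1 and Optn in MPP1, Wipi1 in MPP2-labelled libraries, Ulk2 and Rb1cc1 in MPP4-labelled libraries, Ulk2, Atg9a, Atg2a, Gabarap and Optn on average, Ulk1 in the interaction, Ulk1 in WT MPP1 against WT HSC, Atg10 in WT MPP2-labelled libraries, and Ulk1, Gabarapl1, Nbr1 and Optn in WT MPP4-labelled libraries. The one reversal was Atg7 on average, at -0.04 after subtraction (adjusted p = 0.783). The cause of the changes that follow was not tested.

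The larger changes in a count are listed here, and smaller ones are not all given. Background subtraction left 0 members higher in HSC, 1 in MPP1, 1 in MPP2-labelled, 2 in MPP4-labelled libraries and 4 on average, with 1 lower in MPP2-labelled libraries. It left 1 member in the interaction, 1 higher in WT MPP2-labelled and 2 higher in WT MPP4-labelled libraries, and 53 calls over the related lists. With median-of-ratios size factors 8 members were higher in HSC, 4 in MPP1, 4 in MPP4-labelled libraries and 10 on average. Lower were 2 in HSC, 1 for MPP2-labelled and 1 for MPP4-labelled libraries, and 2 were higher in WT MPP4-labelled libraries. DESeq2 called 8 higher in HSC, 4 in MPP1, 6 in MPP4-labelled libraries and 11 on average. It called 2 lower in HSC, 1 lower for MPP2-labelled and 1 for MPP4-labelled libraries, and 2 higher in WT MPP4-labelled libraries. The total count alone gave 3 higher in HSC, 4 in MPP1, 4 in MPP4-labelled libraries and 8 on average, 2 lower in HSC, 1 in MPP2-labelled, 1 in MPP4-labelled libraries and 4 on average, 2 higher and 2 lower in WT MPP2-labelled libraries, 2 higher in WT MPP4-labelled libraries, and 95 calls over the related lists. A fit of only the libraries compared gave 7 higher in HSC, 4 higher and 1 lower in MPP4-labelled libraries and 1 lower in MPP2-labelled libraries. With no filter 0 were lower in HSC by edgeR (with the filter 2 were at an unadjusted p under 0.05) and 1 in MPP2-labelled libraries, and with at least 5 CPM in 3 libraries 1 was lower in MPP2-labelled and 2 were higher in WT MPP4-labelled libraries.

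With each library left out in turn, the members higher and lower numbered 6 to 11 and 0 to 1 in HSC, 4 to 6 and 1 to 1 in MPP1, 1 to 2 and 0 to 0 in MPP2-labelled, 5 to 12 and 0 to 0 in MPP4-labelled libraries, 13 to 17 and 2 to 3 on average, and 4 to 8 in the interaction. Against WT HSC they numbered 0 to 1 and 1 to 1 in WT MPP1, 3 to 5 and 0 to 1 in WT MPP2-labelled, and 1 to 2 and 3 to 5 in WT MPP4-labelled libraries. Libraries were not left out for the related lists. The median of all genes on the log2 scale moved with median-of-ratios size factors and with the total count from -0.10 to -0.20 and -0.26 in MPP1, from -0.08 to -0.24 and -0.24 in MPP4-labelled libraries, from -0.22 to -0.33 and -0.40 on average, from -0.16 to -0.24 and -0.40 in WT MPP2-labelled and from 0.05 to 0.17 and 0.16 in WT MPP4-labelled libraries. The labels give replicate numbers 1 to 3 in each group. Libraries of the same number were correlated over all genes tested between genotypes within a population, and between WT HSC and each other WT population. In these pairs they did not deviate together (correlations of -0.0084 to 0.0163). Other pairs, such as those between KO-labelled populations, were not computed. Many of these genes have few counts, where counting noise lowers a correlation. Whether libraries of the same number share an animal or a batch therefore cannot be told from these values. The fit with the replicate block lost Gabarapl1 in MPP4-labelled libraries (adjusted p = 0.0569) and Atg10 in WT MPP1 (adjusted p = 0.0552), which left 0 members higher in WT MPP1, where 2 had an unadjusted p under 0.05 without the block. Depth limits members of few counts, such as Becn1, Map1lc3a, Atg4d and Atg4a. In simulated data with few changed genes 1.5-fold changes were rarely recovered. As deposited, HSC had 9462 calls and so a less strict adjusted threshold, and the simulated recovery does not carry over to it.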
